A study of Mus musculus with 9 samples.

Results

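The Hox genes of cultured mouse lung cells were followed over days 3, 7 and 10 of culture. Members were the rows of the gene count table whose name, taken from the RefSeq annotation by Entrez gene ID, was Hox followed by a cluster letter A to D and a paralog number. All 39 mouse Hox genes had a row among the 27179 genes of the table. Cluster A on chromosome 6 held 11 of them, cluster B on chromosome 11 held 10, cluster C on chromosome 15 held 9 and cluster D on chromosome 2 held 9.

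Hox genes encode homeodomain transcription factors that give cells their position along the head-to-tail axis. Genes of paralog group 1 lie at the 3′ end of a cluster and genes of group 13 at its 5′ end, and in the embryo the low numbers are switched on earlier and farther forward than the high numbers. In the developing lung, mainly genes of the lower paralog groups are expressed, largely in mesenchyme. Hoxa5 is the member best known there, since mice that lack it have malformed tracheae and poorly branched lungs.

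The study grew pneumospheres, which are spheres of cells from dissociated embryonic lung kept in suspension, and sequenced their poly(A) RNA on day 3, day 7 and day 10, with 3 libraries a day. All libraries came from C57/B6 lungs taken at stage E11.5 of the embryo, with no treatment on any day. After trypsin dissociation the cells spent 1 h on ordinary culture plastic at 200000 cells/ml. Those still in the supernatant were placed on low-attachment plates at 50000 cells/ml. The medium held B27, insulin-transferrin-selenium, heparin, bFGF at 20 ng/ml and EGF at 10 ng/ml, the gas phase held 10% CO2 and 5% O2, and the spheres were split on days 3 and 7. Nothing in the labels ties the libraries of 1 day to separate cultures or litters, so p-values measure the spread between these libraries, which may be technical.

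Library totals ran from 20716878 to 30466712 counts, and 14940 genes passed the low-count filter and were tested with edgeR. Levels are CPM, the counts scaled to a common library size with TMM factors. A level printed with ± is a mean with its SD over the 3 libraries of a day (n = 3). A gene was called where its Benjamini-Hochberg adjusted p was under 0.05. A gene listed at 0 had no count. At this depth its level is taken only as under a floor of 3 counts, which corresponds to 0.0985 to 0.145 CPM by library size. Day 3 replicate 2 stood apart from the other libraries of its day, and a single unnamed gene ID held 6.79% of its counts. The part of that ID in the distance was not tested. The 3 day 10 libraries differed in their Hox profile, as given below. Defining markers of lung epithelium were at or near 0 in all libraries. Nkx2-1, Foxa1 and Shh had no count, and the 14 epithelial markers together reached at most 2.42 CPM in any library. Mesenchymal markers summed to 14694 to 48908 CPM, so the Hox levels come from RNA that carried mesenchymal and hardly any epithelial transcripts.

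Cluster D held called changes in both directions, since Hoxd8 and Hoxd9 rose in culture while Hoxd3 fell. By annotation the span of Hoxd3 begins next on the 3′ side of Hoxd8. Hoxd4 lies inside that span and was not called on day 10 against day 3. The start regions of Hoxd9, Hoxd8 and Hoxd3 are shown, from RefSeq (build GRCm38.p6, the patched form of mm10). Each holds 250 bases before and 50 bases after the annotated start, on the plus strand and with every CG in capitals. The start used for Hoxd3 is that of its whole span. The windows are chr2:74697513-74697812 for Hoxd9, chr2:74704365-74704664 for Hoxd8 and chr2:74711743-74712042 for Hoxd3.
Hoxd9: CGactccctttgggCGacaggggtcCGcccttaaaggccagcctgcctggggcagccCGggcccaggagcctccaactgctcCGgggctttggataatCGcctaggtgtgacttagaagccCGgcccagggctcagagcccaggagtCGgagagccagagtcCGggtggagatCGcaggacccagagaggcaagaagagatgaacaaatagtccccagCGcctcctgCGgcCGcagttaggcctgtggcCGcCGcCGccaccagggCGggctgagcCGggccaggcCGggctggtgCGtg
Hoxd8: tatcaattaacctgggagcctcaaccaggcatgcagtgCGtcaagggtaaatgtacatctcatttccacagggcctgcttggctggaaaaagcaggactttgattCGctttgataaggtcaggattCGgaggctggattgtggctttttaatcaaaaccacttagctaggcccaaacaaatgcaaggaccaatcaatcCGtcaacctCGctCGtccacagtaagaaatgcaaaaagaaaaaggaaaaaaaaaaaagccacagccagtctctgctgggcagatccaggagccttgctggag
Hoxd3: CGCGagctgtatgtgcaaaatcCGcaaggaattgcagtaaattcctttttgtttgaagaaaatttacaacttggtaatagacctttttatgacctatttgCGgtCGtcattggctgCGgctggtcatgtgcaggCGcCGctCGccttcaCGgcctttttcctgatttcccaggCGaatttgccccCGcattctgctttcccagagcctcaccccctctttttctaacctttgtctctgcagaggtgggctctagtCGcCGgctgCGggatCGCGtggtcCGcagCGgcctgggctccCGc
The window of Hoxd9 held 20 CG pairs, that of Hoxd8 held 6 and that of Hoxd3 held 20, against a median of 7 in the 32851 promoters of this length in the same RefSeq table. Of those promoters, 47.9% had at most 6 CG pairs and 26.5% had at least 20. The genes that rose therefore did not share a CG content, and Hoxd9 matched the falling Hoxd3. Both strands were searched for the TATA box TATAAA, the CAAT box CCAAT, the GC box GGGCGG, the Meis core TGACAG, the joint Hox and Pbx site TGATNNAT and the posterior Hox site TTTATNG. No match overlapped another motif here. Hoxd9 held GGGCGG on both strands, a motif found in 35.7% of all promoters, and Hoxd8 and Hoxd3 held CCAAT, found in 37.4%. TATAAA (13.6% of promoters), TGACAG (19.2%), TGATNNAT (8.85%) and TTTATNG (10.9%) were not in these windows. The matches only describe the letters of these windows.

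**Figure D1:**
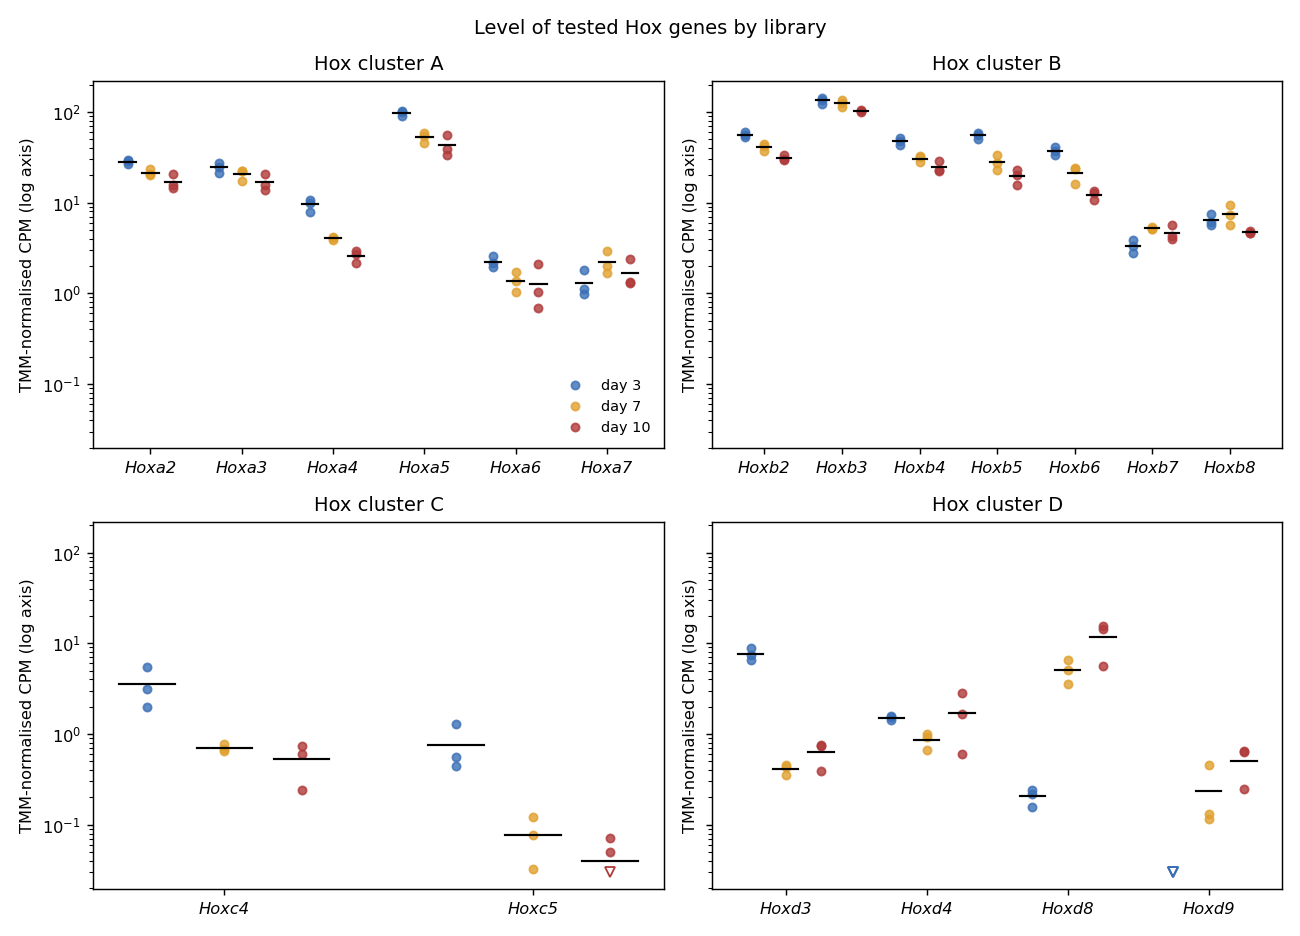
Level of 19 of the 20 tested Hox genes, by cluster, on days 3, 7 and 10. Each point is 1 library on a log axis in TMM-normalised CPM, black lines mark the mean of a day, and open triangles, drawn at the bottom of the axis, mark libraries with 0 counts. Hoxa5, Hoxb3 and other genes of paralog groups 2 to 6 hold the high levels, and Hoxd8 climbs while Hoxd3, Hoxc4 and Hoxc5 drop after day 3.

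Of the 39 members, 20 passed the low-count filter, all but 1 of them in paralog groups 1 to 8. Among them were Hoxa2 to Hoxa7, Hoxb2 to Hoxb8, Hoxc4, Hoxc5, Hoxd3, Hoxd4, Hoxd8 and Hoxd9. Groups 10 to 13, the posterior genes known for patterning of hindlimb, digits and urogenital tract, had 12 members of which none passed. Together these 12 genes gave 2 to 11 counts per library, and 8 members had no count in any library (Hoxa11, Hoxa13, Hoxc10, Hoxc11, Hoxc12, Hoxd10, Hoxd11 and Hoxd12). A count of 0 shows only that the level was under the floor given above. The other untested members had between 1 and 44 counts summed over all 9 libraries.

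Day 10 was compared with day 3 to see which Hox genes changed over the whole culture. Of the 20 tested members, 2 rose and 13 fell, and 5 did not pass the test. Over all genes tested, 56.7% were called, 29.5% higher and 27.2% lower on day 10, while the same shares of the tested members were 10.0% and 65.0%. The median log2 change of the 20 members was -0.82 on day 10 against day 3, and that of all genes tested was 0.00. Since a member that was high on 1 day only passes the filter through that day, these counts describe the 20 and not all 39 members. Without day 3 replicate 2 and day 10 replicate 3 together, 2 rose and 14 fell. Day 7 against day 3 gave 3 rises and 11 falls among the 20 members, against 41.8% of all genes called, 22.8% higher and 19.0% lower, with a member median of -0.67. Among the 3 days 16 members differed, against 53.5% of all genes. All comparisons share their libraries, and the day 3 libraries enter both contrasts with day 3.

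**Figure D2:**
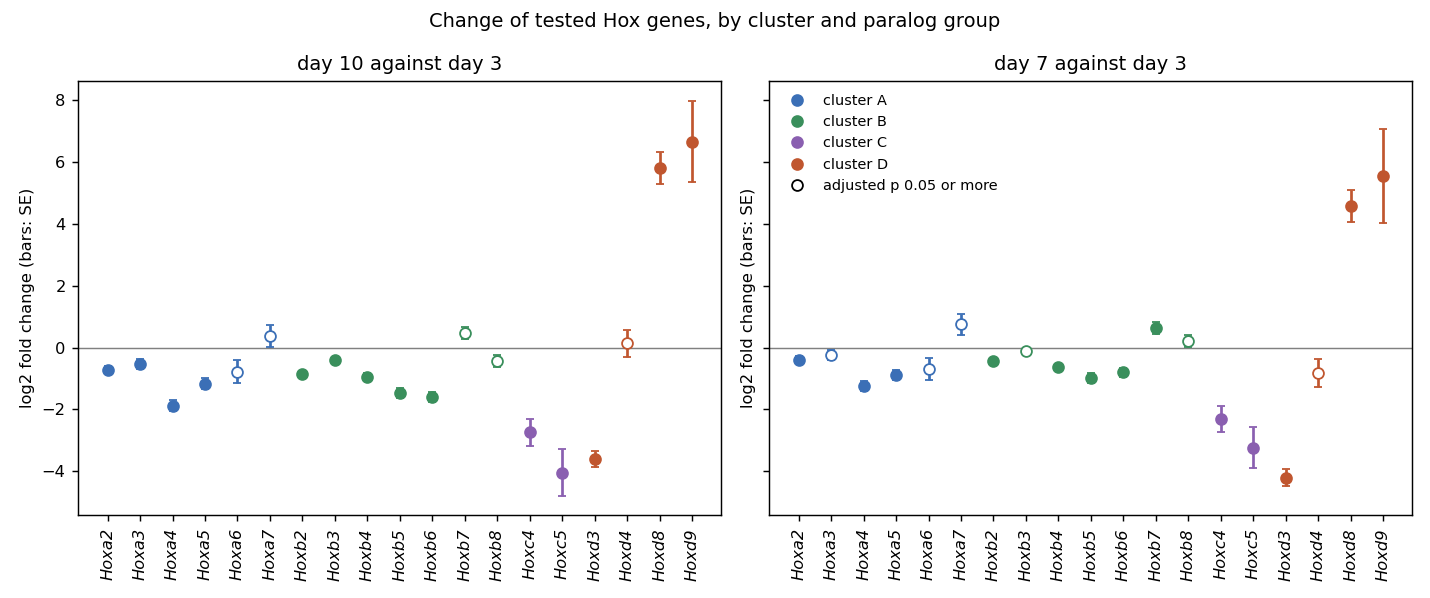
Log2 fold change of 19 of the 20 tested Hox genes for day 10 against day 3 (left) and day 7 against day 3 (right), coloured and ordered by cluster and then by paralog number, with bars of 1 SE either side. Filled points passed the edgeR test (adjusted p under 0.05) and open points did not, and the Hoxd9 value is a fit against 0 counts on day 3. Most points lie below 0, and Hoxd8 and Hoxd9 lie far above it while Hoxd3 lies far below.

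The fall in Hox transcripts ran beside large changes in markers of cell types. Over all genes tested, 27.2% fell and 29.5% rose on day 10 against day 3. Markers of neuron, glia and neural crest summed to 160 to 211 CPM on day 3, 27.3 to 35.7 CPM on day 7 and 17.1 to 20.8 CPM on day 10, and of 12 tested, 10 fell and 1 rose on day 10 against day 3. Erythroid markers summed to 1052 to 1256 CPM on day 3, 6.84 to 7.86 CPM on day 7 and 0.694 to 2.72 CPM on day 10, and 6 of 7 tested fell. Mesothelial markers summed to 68.9 to 89.8 CPM on day 3, 37.6 to 40.8 CPM on day 7 and 18.4 to 28.6 CPM on day 10, and 3 of 3 tested fell. Endothelial markers summed to 179 to 215 CPM on day 3, 246 to 339 CPM on day 7 and 126 to 139 CPM on day 10, and 3 of 7 tested fell. Emcn and Kdr made up most of that sum. On days 3, 7 and 10 Emcn had means of 111, 185 and 109 CPM, and Kdr had 59.2, 91.8 and 12.8 CPM. Kdr, Tek and Erg fell on day 10 against day 3, while Emcn, Pecam1, Cdh5 and Tie1 were not called. Leukocyte markers summed to 5.76 to 8.24 CPM on day 3, 3.16 to 5.81 CPM on day 7 and 2.40 to 5.01 CPM on day 10, and 1 of 3 tested fell. The sums of all 5 lists were lower in every day 10 library than in every day 3 library, as the Hox sum was.

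Mesenchymal markers went the other way, at 14694 to 16441 CPM on day 3, 28280 to 33852 CPM on day 7 and 43400 to 48908 CPM on day 10. Of 14 mesenchymal markers 10 rose and 3 fell, and the 3 that fell, Tbx4, Tbx5 and Tcf21, are transcription factors of the embryonic lung mesenchyme. Of other transcription factors of the list, Prrx1 and Twist1 rose by 5.32 and 0.69 on the log2 scale and Foxf1 had a log2 change of 0.03 (edgeR adjusted p = 0.847). Smooth muscle markers summed to 234 to 249 CPM on day 3, 451 to 576 CPM on day 7 and 407 to 822 CPM on day 10, and 4 of 6 tested rose. The part of these cell types in the Hox changes was not tested, and in bulk RNA fewer cells of a type and less RNA per cell cannot be told apart.

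Paralog groups 1 and 2 hold the most 3′ genes, which pattern the hindbrain and the branchial arches, and Hoxa2 and Hoxb2 fell. Hoxa2, which sets the identity of the second branchial arch, had 29.1, 26.3 and 28.8 CPM on day 3, 20.1, 20.4 and 23.6 CPM on day 7 and 15.7, 14.6 and 20.4 CPM on day 10. Hoxb2, which acts in the facial motor neurons of the hindbrain, had 59.4, 55.3 and 53.4 CPM on day 3, 43.8, 42.1 and 37.1 CPM on day 7 and 29.2, 33.5 and 30.5 CPM on day 10. For both genes the day 3 libraries were the highest, and for Hoxb2 the days did not overlap at all. On day 10 against day 3 the log2 change was -0.73 (SE 0.13, edgeR adjusted p = 0.000875) for Hoxa2 and -0.85 (SE 0.09, edgeR adjusted p = 3.16e-05) for Hoxb2. On day 7 against day 3 Hoxa2 had passed the test at -0.40 (edgeR adjusted p = 0.0307), but not when day 3 replicate 1, day 3 replicate 3, day 7 replicate 1 or day 7 replicate 2 was left out (largest adjusted p 0.102). Of the untested members of group 1, Hoxb1 had 30 counts and Hoxd1 had 3 over all libraries. Hoxb1, a gene of the fourth hindbrain segment, had 17 counts on day 7 and 3 on day 3, a ratio of 5.13 after library scaling with a 95% counting interval of 1.48 to 27.3. On day 7, 13 of those 17 counts came from replicate 1 and replicate 2 had 0, so the difference rested mainly on 1 library.

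Paralog group 3 patterns the neck and the pharyngeal glands, and its 3 members all fell, by very different amounts. Hoxb3 had 136, 143 and 121 CPM on day 3, 134, 125 and 113 CPM on day 7 and 104, 98.7 and 102 CPM on day 10. Days 3 and 7 overlapped and every day 10 library was lower. The log2 change was -0.40 (SE 0.08, edgeR adjusted p = 0.0025) on day 10 against day 3 and -0.11 (edgeR adjusted p = 0.319) on day 7 against day 3. Of the exon bases of Hoxb3, 52.9% are shared with the antisense gene Hoxb3os, and whether counting used strand is not given in the sources used here.

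Hoxa3, needed for thymus and parathyroid, had 24.6, 21.4 and 27.3 CPM on day 3, 22.5, 17.4 and 22.3 CPM on day 7 and 15.8, 13.8 and 20.8 CPM on day 10. Its day 10 libraries lay below all day 3 libraries, the closest by a narrow margin. Other annotated genes share 27.1% of its exon bases. The fitted log2 change was -0.54 (SE 0.17, edgeR adjusted p = 0.0182) on day 10 against day 3. That call was lost without day 3 replicate 3, without day 10 replicate 1 or without day 10 replicate 2 (largest adjusted p 0.0707).

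Hoxd3 (chr2:74711993-74748271), which shapes the first cervical vertebrae, lost most of its transcripts between days 3 and 7. It had 8.98, 7.46 and 6.61 CPM on day 3, 0.428, 0.453 and 0.351 CPM on day 7 and 0.744, 0.761 and 0.388 CPM on day 10. The lowest day 3 library was far above the highest later library, and days 7 and 10 overlapped. In log2 terms the change was -4.21 (SE 0.28, edgeR adjusted p = 4.08e-06) on day 7 against day 3 and -3.62 (SE 0.26, edgeR adjusted p = 3.33e-06) on day 10 against day 3, where the level was 0.0813 of that on day 3. From the bottom of all 14940 tested genes it ranked 192 by log2 change on day 10 against day 3. Hoxd4 lies inside the annotated span of Hoxd3. Of the exon bases of Hoxd3, 9.3% are shared with Hoxd4 and 62.8% with any other gene. Reads in those bases could not be assigned to 1 gene from the annotation alone.

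In paralog group 4, a group that acts in the neck and upper trunk vertebrae, 3 of 4 members fell. Hoxa4 had 10.0, 7.97 and 10.8 CPM on day 3, 4.21, 3.83 and 4.10 CPM on day 7 and 2.18, 2.68 and 2.89 CPM on day 10. Hoxb4, also known for expanding blood stem cells when overexpressed, had 48.1, 43.6 and 51.5 CPM on day 3, 32.2, 27.7 and 31.6 CPM on day 7 and 22.8, 22.0 and 28.6 CPM on day 10. The days of Hoxa4 did not overlap, and for Hoxb4 only days 7 and 10 did. Other annotated genes share 16.0% of the exon bases of Hoxa4. On day 10 against day 3 the log2 change was -1.88 (SE 0.17, edgeR adjusted p = 1.36e-05) for Hoxa4 and -0.96 (SE 0.12, edgeR adjusted p = 8.14e-05) for Hoxb4.

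Hoxc4, the 3′ end gene of cluster C, had 3.16, 2.01 and 5.47 CPM on day 3, 0.691, 0.658 and 0.780 CPM on day 7 and 0.744, 0.240 and 0.600 CPM on day 10. Every day 3 library lay above every later one, and the day 3 libraries themselves varied widely. The log2 change was -2.31 (SE 0.42, edgeR adjusted p = 0.00182) on day 7 against day 3 and -2.75 (SE 0.44, edgeR adjusted p = 0.000489) on day 10 against day 3. Hoxd4, which overlaps Hoxd3, had 1.42, 1.54 and 1.59 CPM on day 3, 0.921, 0.988 and 0.663 CPM on day 7 and 2.83, 1.68 and 0.600 CPM on day 10. The day 10 libraries spread on both sides of day 3, with replicate 3 the lowest of all 9 libraries and replicate 1 the highest. Hoxd4 did not pass the test on day 10 against day 3, with a log2 change of 0.14 (SE 0.44, edgeR adjusted p = 0.804). Other annotated genes, Hoxd3 among them, share 52.3% of its exon bases.

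Paralog group 5 held the member with the highest level per exon length on day 3, and all 3 of its members fell. Hoxa5 (chr6:52201754-52204587) had 99.1, 90.3 and 101 CPM on day 3, 58.3, 44.8 and 53.7 CPM on day 7 and 33.3, 39.1 and 56.1 CPM on day 10. All later libraries lay below day 3, and day 10 replicate 3 reached into the range of day 7. The fitted log2 change was -0.89 (SE 0.17, edgeR adjusted p = 0.00309) on day 7 against day 3 and -1.17 (SE 0.18, edgeR adjusted p = 0.000387) on day 10 against day 3.

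Hoxb5, which also acts in lung branching and in neural crest of the gut, had 58.8, 55.7 and 50.2 CPM on day 3, 33.3, 27.1 and 23.1 CPM on day 7 and 15.7, 20.3 and 23.0 CPM on day 10. Neighbouring days did not overlap, though the highest day 10 and the lowest day 7 library nearly met. In log2 terms the change was -0.98 (SE 0.16, edgeR adjusted p = 0.000933) on day 7 against day 3 and -1.48 (SE 0.16, edgeR adjusted p = 4.43e-05) on day 10 against day 3. Hoxc5 had 0.445, 0.552 and 1.28 CPM on day 3, 0.0329, 0.123 and 0.0780 CPM on day 7 and 0.0496, 0 and 0.0706 CPM on day 10, with 3 counts in all on day 10. Its later libraries all lay below day 3, at or under the counting floor. The ratio of its counts on day 10 to those on day 3 was 0.055 after library scaling, with a 95% counting interval of 0.011 to 0.17. Hoxc5 passed the low-count filter only through day 3, where it was high, so its call is given as a description. It was called lower on day 10 against day 3 (edgeR adjusted p = 0.00116). Its fitted log2 change of -4.05 moved to -3.5 without day 10 replicate 2 and to -4.79 without day 10 replicate 3. Without day 3 replicate 3 it was -3.47.

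In group 6, which patterns the thorax, Hoxb6 fell over both intervals. Hoxb6 had 40.5, 36.9 and 33.5 CPM on day 3, 24.1, 23.6 and 16.2 CPM on day 7 and 10.7, 13.4 and 12.7 CPM on day 10, with no overlap between days. Its log2 change was -1.59 (SE 0.16, edgeR adjusted p = 2.48e-05) on day 10 against day 3 and -0.80 (SE 0.15, edgeR adjusted p = 0.00257) on day 7 against day 3. Hoxa6 had 2.18, 2.60 and 1.94 CPM on day 3, 1.71, 1.03 and 1.37 CPM on day 7 and 0.694, 1.04 and 2.08 CPM on day 10. Only day 10 replicate 3 overlapped day 3. The log2 change of -0.79 (SE 0.37, edgeR adjusted p = 0.0904) on day 10 against day 3 did not pass the test, and it passed without day 10 replicate 3 (edgeR adjusted p = 0.005). Hoxc6, the other member, had 24 counts in all and was not tested.

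Groups 7, 8 and 9 had only 2, 2 and 1 tested members. None of these was called lower on day 10 against day 3, where 27.2% of all genes were. Hoxd9, the tested member of group 9, had no count on day 3 and could not have fallen. Hoxb7, which lies 2650 bases 5′ of Hoxb6, had 3.88, 3.35 and 2.78 CPM on day 3, 5.33, 5.14 and 5.07 CPM on day 7 and 3.97, 5.68 and 4.27 CPM on day 10. All later libraries lay above day 3. On day 7 against day 3 Hoxb7 rose, with a log2 change of 0.63 (SE 0.19, edgeR adjusted p = 0.0218), and that call was lost without day 3 replicate 2, day 3 replicate 3 or day 7 replicate 1 (largest adjusted p 0.0834). On day 10 against day 3 its log2 change was 0.48 (SE 0.19, edgeR adjusted p = 0.0543), and the call was made without day 3 replicate 1, day 10 replicate 1 or day 10 replicate 3 (smallest adjusted p 0.0345).

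Hoxa7 had 1.13, 0.986 and 1.81 CPM on day 3, 1.68, 2.02 and 2.89 CPM on day 7 and 1.29, 1.32 and 2.40 CPM on day 10. Its days overlapped, replicate 3 was the highest library on each of them, and 20.4% of its exon bases are shared with the antisense gene Hoxaas3. It did not pass the test on day 10 against day 3 (log2 change 0.37, SE 0.35, edgeR adjusted p = 0.392). Hoxb8 had 7.48, 5.72 and 6.08 CPM on day 3, 9.31, 7.32 and 5.62 CPM on day 7 and 4.66, 4.92 and 4.66 CPM on day 10. Every day 10 library lay below days 3 and 7. The log2 change of Hoxb8 was -0.44 (SE 0.20, edgeR adjusted p = 0.0811) on day 10 against day 3, and it passed the test with library size as the only scaling or without day 7 replicate 3 (smallest adjusted p 0.047).

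Hoxd8 (chr2:74704615-74707933) rose more than any other member with counts on every day. It had 0.243, 0.158 and 0.220 CPM on day 3, 5.07, 6.54 and 3.55 CPM on day 7 and 14.3, 15.6 and 5.61 CPM on day 10. Every later library was far above day 3, and day 10 replicate 3 lay within the range of day 7. The summed smooth muscle markers were also lowest of day 10 in replicate 3, at 407 CPM against 822 CPM in replicate 1. Acta2 and Tagln made up most of that sum. In day 10 replicates 1, 2 and 3 Tagln had 222, 204 and 93.6 CPM and Acta2 had 469, 382 and 215 CPM. Actg2 and Cnn1 were also lowest in replicate 3. Myh11 (6.05, 2.88 and 4.45 CPM), Des (115, 65.4 and 91.8 CPM) and the untested Myocd were lowest in replicate 2. The part of smooth muscle markers in the Hoxd8 values was not tested. In counts, day 3 held 15 in all, day 7 held 404 and day 10 held 837. The ratio of day 10 to day 3 was 55.2 after library scaling, with a 95% counting interval of 33.3 to 99.2. The log2 change was 4.58 (SE 0.53, edgeR adjusted p = 0.000155) on day 7 against day 3 and 5.80 (SE 0.52, edgeR adjusted p = 1.63e-05) on day 10 against day 3. By log2 change on day 10 against day 3, Hoxd8 ranked 37 from the top of the 14940 tested genes. No exon base of Hoxd8 is shared with another gene in GENCODE M21. In RefSeq the span of the noncoding gene Gm38462 (chr2:74703003-74712058), which has no row among the counts, covers Hoxd8. Its exons were not compared.

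In group 9 only Hoxd9 (chr2:74697763-74700208), the 5′ neighbour of Hoxd8 and a gene of lumbar and limb patterning, passed the filter. It had 0 counts in all 3 libraries on day 3, 0.132, 0.453 and 0.117 CPM on day 7 and 0.645, 0.640 and 0.247 CPM on day 10. Against a floor of 3 counts per library, mean Hoxd9 was at least 4.13-fold higher on day 10 and at least 1.89-fold higher on day 7 than on day 3. On day 7 the replicates had 4, 11 and 3 counts, so the day 7 bound rested mainly on replicate 2. It passed the low-count filter through the days on which it was present, so its edgeR call on both later days (adjusted p = 0.00301 on day 10 against day 3 and 0.0199 on day 7 against day 3) is given as a description, and with a filter of 1 CPM it was not tested. Hoxb9, in cluster B, was too low to be tested, with 2, 1 and 0 counts on day 3, 17, 6 and 6 counts on day 7 and 1, 6 and 5 counts on day 10. Its ratio of day 7 to day 3 was 8.76 after library scaling, with a 95% counting interval of 2.71 to 44.9. Hoxd13, the digit gene at the 5′ end of cluster D, had 3, 3 and 4 counts on day 3, 10, 8 and 4 counts on day 7 and 1, 4 and 1 counts on day 10. Between Hoxd9 and Hoxd13 the genes Hoxd10, Hoxd11 and Hoxd12 had no count.

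Levels of different genes were compared per kilobase of exon (CPM per kb). Summed over its members, cluster B had 109 ± 5.97 CPM per kb on day 3, 80.0 ± 8.29 on day 7 and 60.6 ± 3.14 on day 10. Cluster A had 82.4 ± 5.36 CPM per kb on day 3, 49.0 ± 5.00 on day 7 and 39.8 ± 9.90 on day 10. These clusters held nearly all of the Hox level on each day.

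Cluster C had 1.68 ± 0.801 CPM per kb on day 3, 0.354 ± 0.0299 on day 7 and 0.259 ± 0.0943 on day 10. Cluster D had 2.80, 2.41 and 2.27 CPM per kb on day 3, 2.45, 3.17 and 1.72 on day 7 and 6.71, 6.79 and 2.47 on day 10. Day 10 replicates 1 and 2 stood above all other libraries in the summed level of cluster D, and day 10 replicate 3 lay within the range of days 3 and 7. As a share of the summed Hox level, cluster D held 1.27% ± 0.106 on day 3, 1.86% ± 0.578 on day 7 and 5.19% ± 2.68 on day 10, where single libraries gave 6.92%, 6.55% and 2.11%. On day 10 against day 3, clusters A and B each had 5 falls and no rise among 7 tested members. Cluster C had 2 falls among 2, and cluster D had 2 rises and 1 fall among 4. Over all genes tested, 27.2% were lower and 29.5% higher. The median log2 change of the tested members was -0.79 in cluster A, -0.85 in cluster B, -3.40 in cluster C and 2.97 in cluster D. With Hoxd9 at its bound the median of cluster D was 1.09, and the median of all 20 members stayed at -0.82. Hoxc5 and Hoxd9, counted here, passed the filter only through the days on which they were high. Whether clusters differ was not tested, since the members of a cluster are few and are not replicates.

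**Figure D3:**
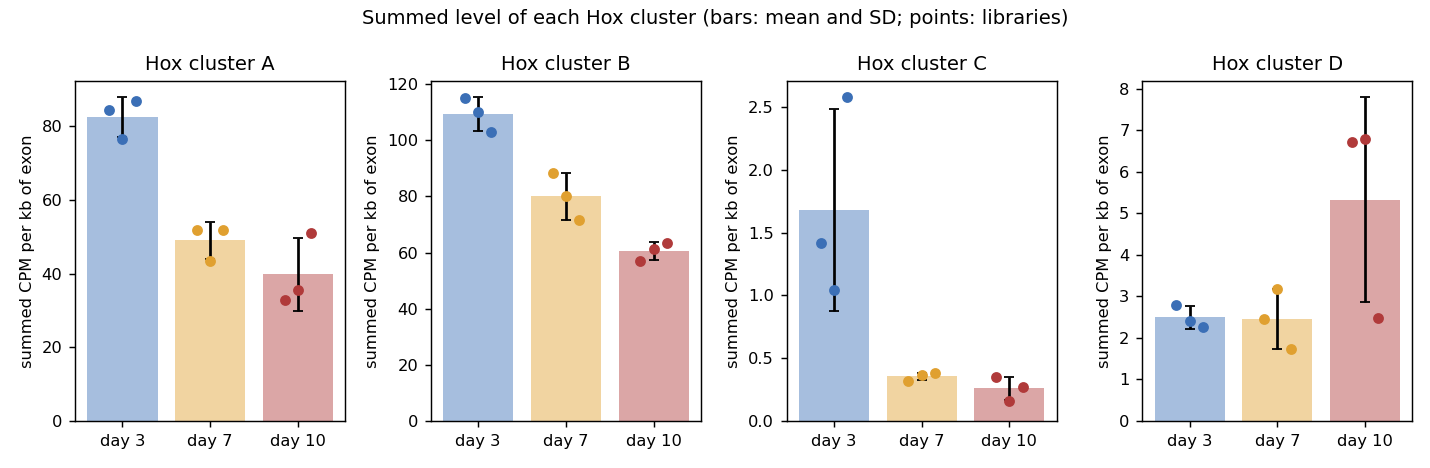
Summed level of clusters A to D in CPM per kb of exon on days 3, 7 and 10, on axes that start at 0 and differ between panels. Bars are the mean and its SD over 3 libraries and points are the libraries. Clusters A, B and C lie lower on day 10 than on day 3, and cluster D lies above the earlier days in day 10 replicates 1 and 2 only.

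Summed over all 39 members, the Hox level was 196 ± 7.04 CPM per kb on day 3, 132 ± 9.59 on day 7 and 106 ± 10.3 on day 10. On day 3 Hoxa5 led with 51.5 ± 2.99 CPM per kb, above Hoxb3 with 31.4 ± 2.67 without overlap of libraries. Hoxb5 (19.7 ± 1.56), Hoxb6 (18.8 ± 1.78), Hoxb4 (18.6 ± 1.55), Hoxb2 (16.1 ± 0.877) and Hoxa2 (15.8 ± 0.860 CPM per kb) followed, and neighbours in that order overlapped. On day 10 Hoxb3 had 23.9 ± 0.615 and Hoxa5 had 22.8 ± 6.31 CPM per kb by all exons, and their libraries overlapped. With longest transcripts their day 10 means were 31.8 and 22.8, so how far apart they lay depended on the length chosen. Hoxd8 had means of 0.0754 CPM per kb on day 3, 1.84 on day 7 and 4.31 on day 10, where its libraries overlapped both those of Hoxb6, the next higher gene, and those of Hoxb7, the next lower. By paralog group, group 5 held 36.5% ± 0.533 of the summed level on day 3, 28.7% ± 1.92 on day 7 and 28.0% ± 4.28 on day 10. Group 3 held 19.1% ± 1.42, 24.8% ± 0.676 and 25.5% ± 2.39 on the same days. With longest transcripts group 3 held more than group 5 on the later days. Their shares were then 31.6% and 25.4% on day 7, and 32.3% and 24.7% on day 10. Groups 7 and 8 held 1.33% ± 0.0914 and 1.28% ± 0.137 on day 3, 3.14% ± 0.297 and 3.52% ± 0.702 on day 7, and 3.39% ± 0.519 and 5.92% ± 2.30 on day 10. In fold terms the length chosen matters most for Hoxa3. It had 4.06 CPM per kb on day 3 with all its exons counted and 9.43 with its longest transcript. On day 3 Hoxb3 moved from 31.4 to 41.9 CPM per kb in the same way.

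Within single libraries, genes of the same cluster shifted against each other. These pairs were picked after their values were seen and are given without a test, as ratios of counts, in which gene length cancels between days. The annotated spans of Hoxd8 and Hoxd3 lie 4059 bases apart, and Hoxd4 lies inside the span of Hoxd3. The ratio of Hoxd8 to Hoxd3 was 0.0270, 0.0212 and 0.0333 on day 3, 11.8, 14.5 and 10.1 on day 7 and 19.3, 20.5 and 14.5 on day 10. The ratio was below 1 in all 3 day 3 libraries and above 10 in all 6 later ones, day 10 replicate 3 included. The ratio of Hoxb7 to Hoxb6 was 0.0899 ± 0.00656 on day 3, 0.251 ± 0.0547 on day 7 and 0.376 ± 0.0440 on day 10. In cluster B the ratio of Hoxb5 to Hoxb3 ran the other way, at 0.412 ± 0.0217 on day 3, 0.224 ± 0.0230 on day 7 and 0.194 ± 0.0388 on day 10. Hoxa7 to Hoxa5, which have Hoxa6 between them, gave 0.0134 ± 0.00391 on day 3, 0.0425 ± 0.0127 on day 7 and 0.0384 ± 0.00452 on day 10. In these 4 pairs the ratios of day 3 did not overlap those of days 7 and 10.

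**Figure D4:**
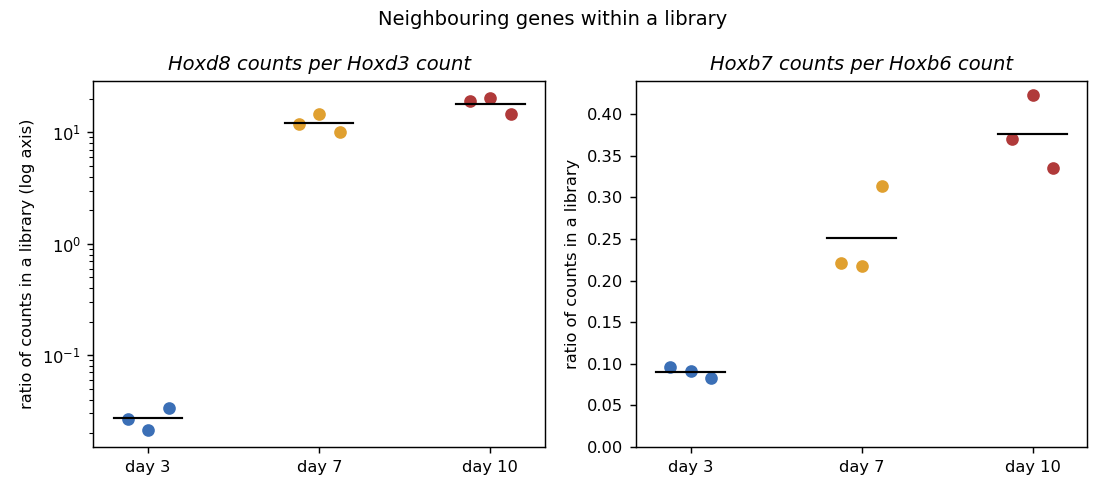
Ratio of counts within a library for Hoxd8 to Hoxd3 (left, log axis) and Hoxb7 to Hoxb6 (right, linear axis from 0) on days 3, 7 and 10. Points are libraries and lines the mean of a day. Both ratios lie higher in all 6 later libraries than in the 3 day 3 libraries, for Hoxd8 to Hoxd3 at 10.1 to 20.5 on the later days against 0.0212 to 0.0333 on day 3.

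Day 10 against day 7 gave 0 rises and 2 falls among the 20 tested members, a share of 10.0% that lay near the 8.51% of all genes called, 4.41% higher and 4.1% lower. The genes that fell were Hoxb2, with a log2 change of -0.40 (SE 0.09, edgeR adjusted p = 0.025), and Hoxb6, with -0.79 (SE 0.16, edgeR adjusted p = 0.0179). At an unadjusted edgeR p under 0.05 there were 1 rise and 8 falls, and DESeq2 called 1 rise and 6 falls. Hoxb2 lost its call without day 7 replicate 1, day 7 replicate 2 or day 10 replicate 1 (largest adjusted p 0.0927) and Hoxb6 without day 7 replicate 1 or day 7 replicate 2 (largest adjusted p 0.0714). Without day 10 replicate 3 there were 2 rises and 7 falls. Hoxd8 had a log2 change of 1.22 (SE 0.36, edgeR adjusted p = 0.0655) on day 10 against day 7, and it passed with all libraries in DESeq2 (adjusted p = 0.0129) and without day 10 replicate 3 in edgeR (adjusted p = 0.00282).

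The change over the later interval (day 10 minus day 7) was tested against that over the earlier interval (day 7 minus day 3), and 2 members differed, against 8.03% of all genes. For Hoxd3 the later change exceeded the earlier by 4.80 on the log2 scale (SE 0.54, edgeR adjusted p = 0.00087), and its fall lay before day 7. For Hoxd8 the difference was -3.36 (SE 0.75, edgeR adjusted p = 0.0256), and its rise was steeper before day 7. The call of Hoxd8 was lost when any 1 of the 3 day 3 libraries, day 7 replicate 1 or day 7 replicate 2 was left out (largest adjusted p 0.094). The intervals span 4 and 3 days, and spheres were split on days 3 and 7, so time since a split differs between the days as well.

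Hox proteins bind DNA together with homeodomain cofactors of the Pbx, Meis and Pknox families, and these were examined as a list chosen beside the members. On day 10 against day 3, 6 of 9 fell and none rose, against 27.2% of all genes lower and 29.5% higher, with a median log2 change of -0.53 (0.00 over all genes). Meis2 had 265 ± 10.9 CPM on day 3, 128 ± 0.928 CPM on day 7 and 100 ± 6.76 CPM on day 10, and its log2 change was -1.40 (SE 0.07, edgeR adjusted p = 3.57e-07). Meis1 had 189 ± 5.19 CPM on day 3, 114 ± 1.57 CPM on day 7 and 101 ± 9.64 CPM on day 10 (log2 change -0.91, SE 0.07, edgeR adjusted p = 7.07e-06). Pbx4 fell as well, by 0.90 on the log2 scale. Meis3, Pknox1 and Pknox2 did not pass the test.

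Polycomb complexes keep Hox genes silent, and trithorax complexes keep them active. Of 19 Polycomb genes tested, 5 rose and 9 fell on day 10 against day 3 (29.5% and 27.2% of all genes), with a median log2 change of -0.20. Ezh2, the histone methyltransferase of dividing cells, had 131 ± 1.89 CPM on day 3, 78.7 ± 11.6 CPM on day 7 and 55.3 ± 11.4 CPM on day 10 (log2 change -1.25, SE 0.15, edgeR adjusted p = 9.2e-05). Its paralog Ezh1 had 24.5 ± 1.44 CPM on day 3, 42.5 ± 4.87 CPM on day 7 and 55.0 ± 12.8 CPM on day 10 (log2 change 1.16, SE 0.15, edgeR adjusted p = 0.000143). Cbx2 and Mtf2, other genes of the Polycomb list, fell by 1.11 and 1.05 on the log2 scale. Of 10 trithorax and H3K27 demethylase genes 7 fell and none rose, against the same shares of all genes. Among them Ash2l fell by 0.63, Dpy30 by 0.59, Kat6a by 0.46 and Wdr5 by 0.40 on the log2 scale, and the list had a median of -0.38. Kmt2a, the methyltransferase known for keeping Hox genes active, had a log2 change of -0.06 (SE 0.18, edgeR adjusted p = 0.775).

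A list of 15 genes known to act upstream of Hox genes included retinoic acid enzymes and receptors, Cdx factors and Gdf11 signalling, and not all of them are inducers. Of these, 10 were tested, 3 rose and 3 fell, near the 29.5% and 27.2% of all genes, with a median log2 change of -0.23. Rarg, a retinoic acid receptor, had 30.6 ± 1.49 CPM on day 3, 80.4 ± 15.5 CPM on day 7 and 97.3 ± 10.4 CPM on day 10 (log2 change 1.67, SE 0.14, edgeR adjusted p = 6.51e-06). Aldh1a2, which makes retinoic acid and also marks mesothelium, had 8.57 ± 0.960 CPM on day 3, 3.34 ± 1.43 CPM on day 7 and 2.80 ± 0.503 CPM on day 10 (log2 change -1.62, SE 0.27, edgeR adjusted p = 0.000658). Egr2, which activates Hoxa2 and Hoxb2 in the hindbrain, rose by 1.95 on the log2 scale, and Acvr2b, a receptor for Gdf11, fell by 1.69. Cdx2, Cdx4 and Cyp26a1 had no count in any library.

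Genes beside the Hox genes were described by position. Inside the 4 clusters, 14 genes of the table were no members. Of these, 3 were tested and 2 fell on day 10 against day 3, where 27.2% of all genes were lower. They were 5730596B20Rik, a noncoding gene overlapping Hoxa3, with a log2 change of -1.39 (SE 0.35, edgeR adjusted p = 0.00638), and Hoxaas3, with -1.27 (SE 0.43, edgeR adjusted p = 0.0276). Hotair, Mir10b and the Mir196 genes were among the 7 with no count. The Mir genes are short microRNA records, which poly(A) libraries are not made to capture. A count of 0 there does not show that these microRNAs were absent. Of the 8 nearest protein-coding genes outside the clusters 4 were tested. Skap2, next to cluster A, fell with a log2 change of -0.40 (SE 0.11, edgeR adjusted p = 0.0113), and Calcoco1, next to cluster C, rose with 0.36 (SE 0.13, edgeR adjusted p = 0.0322). Evx1 and Evx2, homeobox genes beside the 5′ ends of clusters A and D, had no count.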

How the data were processed

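Read counts per gene were measured by poly(A) RNA sequencing in 9 pneumosphere libraries, 3 each on days 3, 7 and 10. The authors deposited 1 table of whole-number counts per Entrez gene ID, without normalisation. Libraries were made with the Illumina TruSeq RNA kit, per the labels' protocols, and the submitters' processing notes name featureCounts and build mm10. The sources used here do not give the aligner, the annotation, the use of strand or the handling of reads with several positions. All 9 columns were matched to samples by name. Symbols came from RefSeq for 25275 of 27179 IDs, exon lengths and overlaps from GENCODE M21 on the same build.

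Genes passing filterByExpr (14940) were scaled by TMM and entered a robust quasi-likelihood fit in edgeR 4.0.16 (R 4.3.3), with 1 coefficient a day over all 9 libraries and no block (common biological coefficient of variation 0.146). Pairs of days were tested by quasi-likelihood F and called at a Benjamini-Hochberg adjusted p under 0.05 over all genes tested. The standard error of a log2 change was derived from its size and its F value. For members with few counts, ratios of summed counts carry exact 95% counting intervals, and folds against 0 use a floor of 3 counts per library. Both cover counting error alone, because without molecular identifiers 2 reads may stem from 1 molecule. Replicates of a day differed by 8.05 to 127 in chi-square per degree of freedom, so no pair was a repeat of 1 library. Alternatives were other scalings, other filters, DESeq2 1.42.0, the replicate number as a block, only the groups compared, and leaving out libraries.

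The members and the gene lists were chosen with earlier results of these data known. The members passing the filter are described by library, except 1 that is counted but not reported here by name, as are some genes of the other lists. From each other list up to 4 called genes with the largest change and at least 1 CPM were named, together with Meis1, Meis2, Ezh2 and Kmt2a. Of the marker lists only the members that a sentence turned on are named.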

Additional observations from a re-analysis of the deposited data

How the results depend on the processing

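No alternative turned a call of a tested Hox gene into the opposite direction. Of 1389 gene results refitted, 1328 stayed on their side of the threshold, 25 lost a call and 36 gained one. On day 10 against day 3, the 2 rises became 1 with a filter of 1 CPM and 1 with only the groups compared, where Hoxd9 was no longer tested, and leaving out single libraries gave 2 to 3 rises and 11 to 14 falls (13 with all libraries). On day 7 against day 3 the ranges were 2 to 3 rises (3) and 10 to 12 falls (11). Day 10 against day 7 depended most on the settings. DESeq2 called 1 rise and 6 falls, the replicate block 1 rise (Hoxd8), only the groups compared 0 falls, and the set without day 3 replicate 2 and day 10 replicate 3 gave 2 rises and 5 falls. Leaving out single libraries gave 0 to 2 rises and 0 to 7 falls. Over all genes day 10 against day 7 had 1271 calls, 2114 with DESeq2, 290 with only the groups compared and 304 to 1548 without single libraries, and the cause was not tested. Without single libraries, calls over all genes ran from 7328 to 8452 (8473 with all libraries) on day 10 against day 3 and from 4778 to 7150 (6240) on day 7 against day 3. Over all alternatives, members differing among days ran from 13 to 18, and members whose intervals differed from 1 to 3. The share of cluster D on day 3 was 1.54% with longest transcripts. Same-numbered libraries of different days correlated at -0.069 to 0.433 in their deviations from the day means, and other pairs at -0.356 to 0.221. Not every library correlated best with its own number, and the number was not used as a block. The deposited columns of a replicate number follow each other in name. Whether the numbers pair cultures across days is not given in the labels. With the block, Hoxa7 on day 7 against day 3 (adjusted p = 0.0207, against 0.11) and Hoxd8 on day 10 against day 7 (0.0179, against 0.0655) were called, and the block changed no other count of Hox calls by over 1.5 times. No scaling moved the median of all genes by over 0.1 on the log2 scale. With 3 counts as the floor, changes in the 19 untested members were mostly not measurable at this depth.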
